A study of Mus musculus with 41 samples.

Results

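The control animals of this inhalation study carry a direct comparison of lung with liver, because RNA of both organs was read on arrays of the same design against the same reference RNA. All mRNA arrays titled Control were taken, which gave 14 of the 41 samples of the series: 6 lungs and 8 livers. The mice were adult female C57BL/6 (C57BL/6BomTac in the methods) that had been time-mated and had not conceived, and their age is labelled only as the equivalent of GD4. They breathed filtered air for 1 h per day on 11 consecutive days and were killed 5 days after the last session. A portion of left lung or of a liver section was used, and every array holds 1 mouse. Mice 24, 26, 27, 29, 32 and 34 are present in both organs, and mice 37 and 45 in liver only. A second set of 7 lungs and 7 livers from mice that inhaled 40 mg/m3 of nanoTiO2 on the same schedule was used as a repeat. Sample RNA carried the dye Cy5, and universal mouse reference RNA, a pool of cell line RNA, carried Cy3. A value is therefore the log2 of Cy5 over Cy3 as tabulated by the authors, and a difference is always lung minus liver.

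Lung exchanges gas across a thin epithelium. Flat alveolar type 1 cells cover most of the surface, type 2 cells secrete surfactant, club and ciliated cells line the airways, and a dense capillary bed and elastic matrix lie beneath. Liver is built mostly of hepatocytes, which secrete plasma proteins, make bile acids and urea, store and release glucose, and oxidize drugs, next to a sinusoidal endothelium and resident macrophages called Kupffer cells. The identity of each organ is kept by its own transcription factors, such as Nkx2-1 in lung epithelium and Hnf4a in hepatocytes.

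The 2 organs could not be told apart from the slide set and scan. Lungs lay on 3 slides and livers on 4 others, read on different scanner models with different software versions. The median background was 41 to 45 in Cy3 and 61 to 62 in Cy5 on lung arrays against 20 to 27 and 80.5 to 82 on liver arrays. Between 55.1% and 70.5% of spots were well above background in Cy5. Log2 ratios of 2 arrays correlated at 0.9624 to 0.985 within lung, at 0.9667 to 0.9881 within liver and at 0.3952 to 0.4482 between the organs, a description across probes. The number of arrays limits the precision of every value.

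The reference channel differed between the lung and liver arrays although the reference RNA was the same. Cy3 alone, quantile normalized, passed the test at 17965 of 41172 probes (43.6%), over 2-fold at 766 and over 4-fold at 241 of them, and at 50.4% of named genes. The differences were small at most probes, with a median size of 0.12 on the log2 scale, and large at many of the probes that were brightest in liver. Among the 2% brightest probes in Cy5 that were over 4-fold higher in liver, 183 of 224 (81.7%) also had higher Cy3 on liver arrays, and the median difference was -1.84 in Cy3, -4.62 in the ratio and -7.48 in Cy5 alone. At Alb (albumin) the Cy3 signal differed by -7.43, at Mup4 by -7.23, at Sftpc by 9.10 and at Sftpa1 by 6.16. Where Cy3 moved with the organ in this way, the ratio gave a smaller difference than the sample channel. The difference of Cy5 alone is printed beside the ratio for many such genes. The 2% brightest probes in Cy5 that were over 4-fold higher in lung were mixed: 58 of 154 (37.7%) had higher Cy3 on lung arrays and 42 (27.3%) on liver arrays, with median differences of 0.05 in Cy3, 3.35 in the ratio and 3.34 in Cy5 alone. Of the probes over 4-fold higher in lung, 781 of 1438 (54.3%) had higher Cy3 on lung arrays and 202 (14%) had higher Cy3 on liver arrays. The part of this in each result was not tested.

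**Figure D1:**
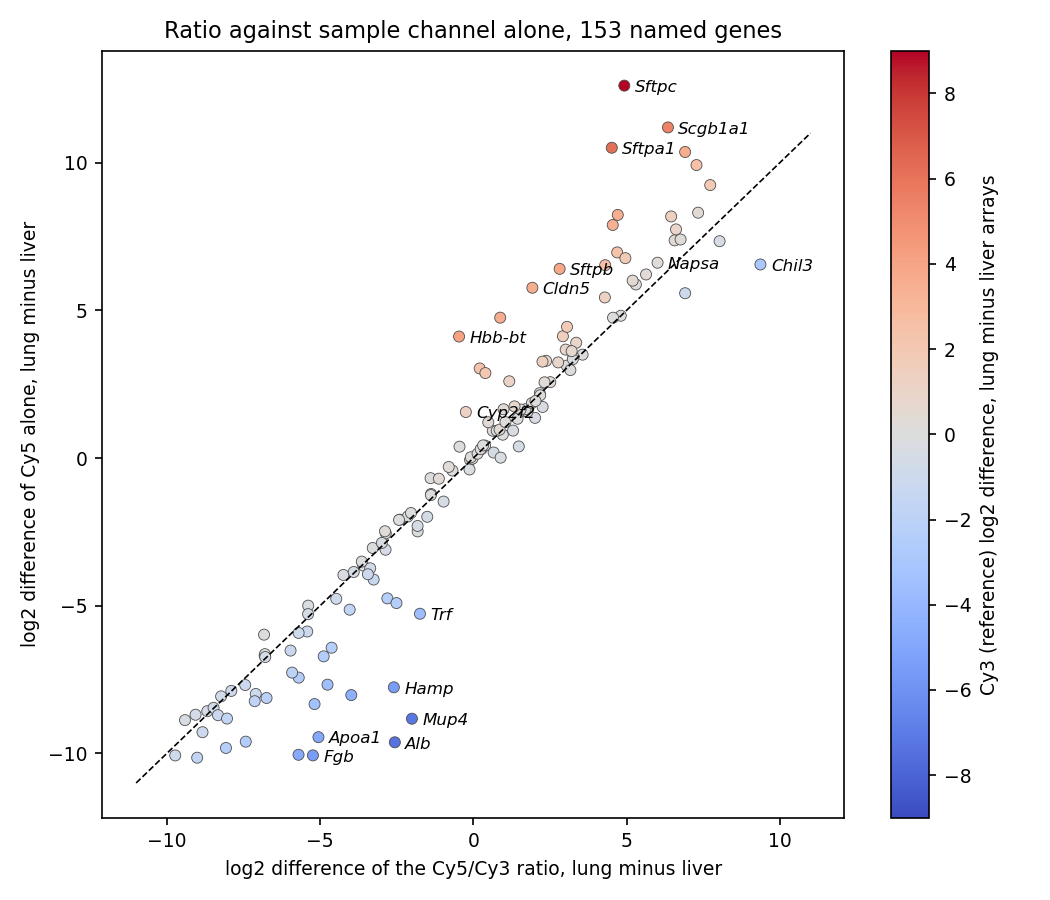
Log2 difference of the ratio (x axis) against the log2 difference of Cy5 alone (y axis), lung minus liver, for the 153 genes chosen by rule, with the Cy3 difference as color and the line of equality dashed. Sftpc (4.92 in the ratio and 12.61 in Cy5) and Alb (-2.56 and -9.62) lie far from the line, and Napsa (6.01 and 6.61) lies near it.

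Most probes differed between the control organs, in nearly equal numbers each way. Of 41174 probes, 24766 (60.1%) passed the test (limma, Benjamini-Hochberg adjusted p under 0.05), with 12506 higher in lung (30.4%) and 12260 higher in liver (29.8%). Over 4-fold differences were found at 2838 probes (6.89%), of which 1438 were higher in lung (3.49%) and 1400 in liver (3.4%). The median difference over all probes was -0.0065. With 1 probe for each of 19505 named genes, 13562 passed (69.5%; 35.8% higher in lung and 33.8% higher in liver), 1160 were over 4-fold higher in lung (5.95%) and 963 in liver (4.94%). The 2 organs did not overlap at 42.2% of probes and 52.5% of named genes. These shares are the background for every gene list below. In bulk tissue, a smaller number of cells of a type and less RNA per cell cannot be told apart.

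The genes of the alveolar epithelium were far higher in lung. Of 12 type 2 cell and surfactant genes, 11 were higher in lung and none in liver, 9 of them over 4-fold, and the median difference was 4.01. The exception was the lipid transporter Abca3, with a difference of 0.13 (adjusted p = 0.063, limma). Sftpc, the hydrophobic surfactant protein made by type 2 cells, measured 4.55, 4.98 and 5.15 (lowest, median and highest lung) against -0.11, 0.02 and 0.08 in liver. No liver value came near a lung value, and the probe was not well above background in any liver. The difference of the ratio was 4.92 ± 0.07 (SE, n = 6 and 8, limma adjusted p = 7.4e-18), and in Cy5 the level was at least 9849-fold higher in lung. Such bounds come from the Cy5 channel after normalization of the average intensity between arrays, have no dye swap behind them, and can exceed other measures: quantile normalization of Cy5 alone gave 6237-fold for Sftpc.

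Sftpb, needed for the surface film, measured 2.74, 2.93 and 3.14 in lung and 0.01, 0.10 and 0.33 in liver. Its difference was 2.81 ± 0.07 in the ratio and 6.40 in Cy5 alone. Sftpa1, a collectin of host defense, differed by 4.52 ± 0.12 (10.50 in Cy5) and Sftpd, the other collectin, by 4.71 ± 0.22 (8.23 in Cy5). The widest difference of the list in the ratio was that of Napsa, the protease that processes surfactant proteins, at 6.01 ± 0.07, with lungs between 3.53 and 3.57. The 6 lungs were within 0.05 of each other at this gene. Both probes of Sftpa1 were higher in lung.

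All 11 genes of the type 1 cell list were higher in lung, 9 over 4-fold, with a median of 4.85. Cav1, the coat protein of caveolae, measured 2.56, 2.65 and 2.83 in lung and -5.56, -5.35 and -5.08 in liver, a gap of 262-fold (8.03 ± 0.07, adjusted p = 7.7e-20). Another probe of Cav1 gave 2.60. The water channel Aqp5 differed by 6.45 ± 0.06 and the receptor Ager by 4.55 ± 0.07 (7.89 in Cy5). The chloride channel family member Clic5 differed by 6.57 ± 0.09 at its brightest probe, by -0.05 and 4.18 at the others and by 3.57 as 1 value per symbol. Hopx, a homeodomain cofactor of type 1 cells, was the least different in the ratio at 0.88 ± 0.10, where Cy3 differed by 3.54 and Cy5 alone by 4.75.

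Of 10 club and secretory airway genes, 7 were higher in lung, all over 4-fold, and 2 were higher in liver. Lungs 27 and 29 were lowest at this list, with means of 3.90 and 4.00 against 4.62 to 4.98 in the other 4, and at the ciliated cell list, with 2.07 and 2.00 against 2.28 to 2.35. With these 2 lungs alone against all livers, 7 club and 11 ciliated genes were still called higher in lung, and the list medians were 2.04 (against 3.19) and 1.71 (against 1.90). Scgb1a1, the main secretoglobin of club cells, measured 6.48, 6.62 and 6.92 in lung and -0.11, 0.30 and 0.71 in liver, 81.5-fold apart in the ratio (6.35 ± 0.15, and 11.19 in Cy5). Scgb3a2 differed by 7.28 ± 0.11 (9.92 in Cy5) and the carbonyl reductase Cbr2 by 7.73 ± 0.06. Pigr, which carries immunoglobulin A into bile and airway fluid, was higher in liver, with a difference of -3.44 (lung 1.49, 2.15 and 2.56, liver 5.34, 5.51 and 5.68). The aldehyde dehydrogenase Aldh1a7 differed by -0.75. Cyp2f2, a cytochrome P450 of club cells that hepatocytes also express, did not pass in the ratio (-0.24 ± 0.12, adjusted p = 0.084), passed without lung 27 (-0.30, adjusted p = 0.048), and Cy5 alone gave a higher level in lung (1.56, adjusted p = 3.4e-08). Its sign therefore depended on the channel used. Of 13 ciliated cell genes, 12 were higher in lung, 6 over 4-fold, among them the factor Foxj1 (2.26 ± 0.13) and the tubulin-binding Tppp3 (4.96 ± 0.07). The other, the dynein chain gene Dnaic1, gave 0.21 (adjusted p = 0.11). The smallest called difference was that of Spef2, 0.14 (adjusted p = 0.045), which did not pass with the mouse as a block (0.16, adjusted p = 0.056), nor without lung 24, 26, 29 or 32 or liver 24, 26, 27, 29, 34 or 45 (0.11 to 0.15).

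**Figure D2:**
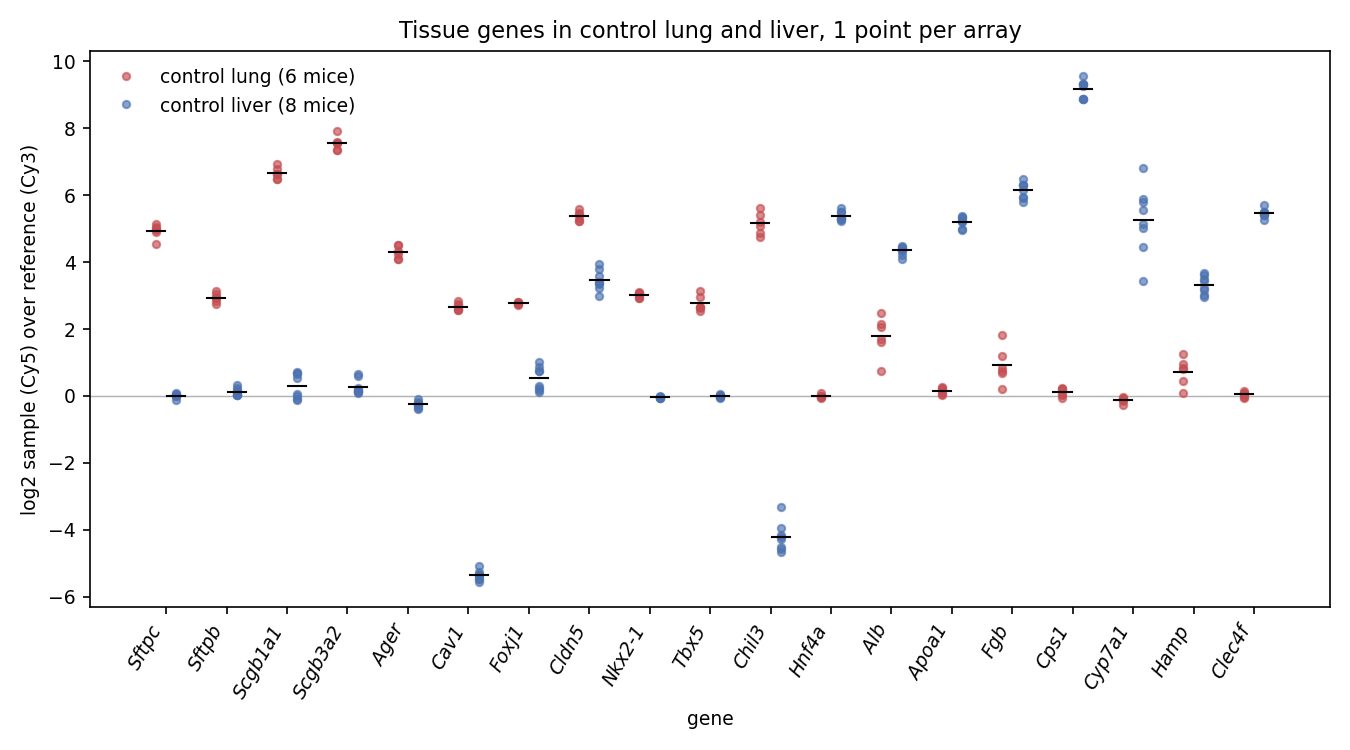
Log2 ratio (y axis) of 19 tissue genes (x axis) on each control array, with lungs in red (n = 6), livers in blue (n = 8) and a bar at each mean. Values of the 2 organs do not overlap at any gene shown, and Cyp7a1 spreads widest among the livers, from 3.43 to 6.80.

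Endothelium and connective tissue also favored lung. Of 21 vascular endothelial genes, 20 were higher in lung and none in liver, 12 over 4-fold, with a median of 2.27. Calcrl, the adrenomedullin receptor, led in the ratio with 5.30 ± 0.09 (its second probe gave 1.17), and the tight junction gene Cldn5 differed by 1.92 ± 0.12 in the ratio and 5.76 in Cy5. Under the scanner's processed signals Cldn5 fell to 0.41. Its highest adjusted p (limma) over the alternative settings was 0.28, so its call was not kept in all of them. Kdr, a receptor for vascular endothelial growth factor that is also used by sinusoids, differed by 0.39 ± 0.09 (adjusted p = 0.0019), its second probe gave 0.01, and the scanner's processed signals turned the sign (-1.37). Plvap did not pass in the ratio (0.31, adjusted p = 0.055) and gave 2.95 in Cy5. Of 17 smooth muscle and matrix genes, 16 were higher in lung and 11 over 4-fold. They included the contractile gene Cnn1 (5.20 ± 0.19) and elastin, Eln (1.76 ± 0.08). Dcn did not pass (0.15, adjusted p = 0.43).

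The sinusoidal endothelium of liver showed the reverse. Of 8 genes, 7 were higher in liver, led by the lectin Clec4g with 0.71, 0.79 and 1.08 in lung and 4.51, 4.88 and 5.22 in liver (-4.03 ± 0.13). Its other 2 probes gave -0.07 and a value near 0, and 1 value per symbol gave -1.37. The exception was Lyve1, the hyaluronan receptor shared with lymphatic vessels, which was 9.49-fold higher in lung (3.25 ± 0.25) and gave 1.96 at its second probe. Gata4, with a difference of only -0.12, did not pass with the mouse as a block (adjusted p = 0.053) or without lung 34 (-0.10, adjusted p = 0.063).

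The 10 genes with the highest differences of the ratio were Chil3, Cav1, Cbr2, Mgp, Scgb3a2, Gsn, Sec14l3, Tspan13, Rasgef1a and Clic5. Chil3, a chitinase-like protein of alveolar macrophages, stood first in the ratio: lungs measured 4.75, 5.14 and 5.63 and livers -4.65, -4.25 and -3.31, a gap of 659-fold (9.36 ± 0.19, adjusted p = 3.3e-16). Its Cy3 signal ran against the organ, with a difference of -2.93, and Cy5 alone gave 6.55, below the 12.61 of Sftpc and the 11.19 of Scgb1a1. Mgp, an inhibitor of matrix calcification, differed by 7.33 ± 0.13 and the actin-severing protein Gsn by 6.91 ± 0.08.

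Of 19 transcription factors of lung, 18 were higher in lung and none in liver, 8 over 4-fold, with a median of 1.70. Under the scanner's processed signals, which moved the median of all probes to -0.11, 2 members were called higher in liver. Nkx2-1, the factor of lung epithelium, measured 2.93, 3.03 and 3.11 in lung and -0.07, -0.04 and 0.01 in liver. It was not well above background in any liver and was at least 24.6-fold higher in lung in Cy5 (ratio 3.06 ± 0.04). Quantile normalization of Cy5 alone gave 4.44 (log2) for Nkx2-1. Tbx5 of the lung mesenchyme was at least 11.2-fold higher (ratio 2.77 ± 0.08, and 0.15 at its second probe), and Foxf1 differed by 1.44 ± 0.10. Klf4 had the widest difference, 4.81 ± 0.16. Klf2 did not pass (0.09) and gave 3.91 at its second probe. Of 23 Hox genes, which record position along the body axis, 10 were higher in lung and 5 in liver. Hoxb5 (2.32 ± 0.07) and Hoxa5 (at least 4.94-fold in Cy5) were the 2 over 4-fold in lung, and none was over 4-fold in liver. The count in liver was 3 in Cy5 alone and 2 with the lungs of block 2 alone, and the count in lung was 16 when scanner signals were centred on the median.

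Liver transcription factors ran the other way, with 14 of 16 higher in liver and 13 over 4-fold (median -3.42). Hnf4a, a nuclear receptor of hepatocytes, measured -0.07, -0.03 and 0.09 in lung, where no array was well above background at this probe, and 5.24, 5.30 and 5.60 in liver. The fitted ratio was -5.39 ± 0.06, and other probes of the gene gave -2.20 and -2.04. The xenobiotic sensor Nr1i3 differed by -3.36 ± 0.08. The forkhead gene Foxa3 was at least 8.88-fold higher in liver in Cy5 (ratio -3.28 ± 0.11). Its relatives did not follow: Foxa1 was higher in lung by 0.38 ± 0.11, though not with the lungs of hybridization block 2 alone (adjusted p = 0.63), and Foxa2 did not pass (0.01).

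Promoters of genes far apart between the organs are shown with letters of FOXA and NKX2-1 motifs. Of these factors Nkx2-1 and Foxa3 were themselves far apart and Foxa1 and Foxa2 were not. No motif of Hnf4a was searched. The 150 bases before the annotated start are given, read 5′ to 3′ on the strand of the gene, from RefSeq on build GRCm38.p6, and capitals mark letters found by search. The search covered the 250 bases before the start for the FOXA motif TGTTTAC and the NKX2-1 core CTCAAG on both strands, and the TATA box TATAAA on the strand of the gene. Fabp1, a fatty acid carrier of hepatocytes (-4.62 ± 0.09, and -6.42 in Cy5), and Apoh were higher in liver, and the other 2 are surfactant genes.
Fabp1, chr6:71199729-71199878, plus strand: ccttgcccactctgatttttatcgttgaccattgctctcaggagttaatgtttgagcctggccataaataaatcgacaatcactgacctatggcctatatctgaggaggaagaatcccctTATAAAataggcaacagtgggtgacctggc
Apoh, chr11:108395147-108395296, plus strand: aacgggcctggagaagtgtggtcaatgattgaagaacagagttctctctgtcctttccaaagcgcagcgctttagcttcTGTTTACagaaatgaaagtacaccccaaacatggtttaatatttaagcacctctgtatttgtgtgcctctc
Sftpb, chr6:72304460-72304609, plus strand: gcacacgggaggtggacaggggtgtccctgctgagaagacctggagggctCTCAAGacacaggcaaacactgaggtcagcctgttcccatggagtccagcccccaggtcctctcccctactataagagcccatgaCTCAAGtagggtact
Sftpa1, chr14:41131638-41131787, plus strand: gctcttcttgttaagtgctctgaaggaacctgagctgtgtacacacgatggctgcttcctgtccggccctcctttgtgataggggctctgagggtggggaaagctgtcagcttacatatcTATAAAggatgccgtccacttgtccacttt

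In these windows the FOXA letters were present in Apoh, the TATA letters in Fabp1 and Sftpa1, and the NKX2-1 letters at 2 places in Sftpb and, outside the part printed, at positions -166 to -161 from the start of Sftpa1. TGTTTAC was present in 3.17% of all 32851 RefSeq promoters, in 4.77% of 964 promoters of genes over 4-fold higher in liver and in 1.95% of 1179 promoters of genes over 4-fold higher in lung. In the same 3 sets CTCAAG was present in 13.3%, 11.3% and 12% and TATAAA in 7.59%, 7.88% and 7.12%. A promoter was given for 757 of the 963 liver genes and 872 of the 1160 lung genes. These are counts of letters, with no test.

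Plasma proteins made by hepatocytes were all higher in liver: 25 of 25 measured, 24 over 4-fold, with a median of -5.23. Albumin, Alb, the main protein of plasma, measured 0.75, 1.87 and 2.49 in lung and 4.11, 4.39 and 4.49 in liver. The ratio gave only 5.90-fold (-2.56 ± 0.19), where Cy5 alone gave 789-fold (-9.62). Fibrinogen beta chain, Fgb, differed by -5.23 ± 0.19 in the ratio and -10.07 in Cy5, and apolipoprotein Apoa1 by -5.05 ± 0.07 and -9.45. Transthyretin, Ttr, was not well above background in any lung and was at least 88.3-fold higher in liver in Cy5, against 60.6-fold after quantile normalization of Cy5 alone. Apoh, a phospholipid-binding protein, had the widest difference in the ratio (-8.07 ± 0.13) and Trf, transferrin, the narrowest (-1.74 ± 0.09, and -5.27 in Cy5). The mean of the list in single lungs ran from 0.53 (mouse 27) to 1.02 (mouse 26), and in single livers from 5.75 to 6.33.

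Nitrogen metabolism was higher in liver throughout. All 7 urea cycle genes and all 16 genes of amino acid breakdown were over 4-fold higher in liver, with medians of -5.70 and -5.54. Cps1, which starts the cycle, measured -0.07, 0.13 and 0.23 in lung, where it was not well above background, and 8.86, 9.28 and 9.56 in liver, at least 716-fold higher in Cy5 (413-fold after quantile normalization, 534-fold in the ratio). Arginase 1, Arg1, the last enzyme of the cycle, differed by -5.70 ± 0.08.

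Carbohydrate, bile acid and fatty acid genes followed. All 14 genes of hepatic glucose, fructose and glycogen metabolism were over 4-fold higher in liver (median -4.26), among them the gluconeogenic enzyme Fbp1 (-7.42 ± 0.10, and -9.60 in Cy5). G6pc, which releases free glucose, was at least 158-fold higher in Cy5 (ratio -4.88 ± 0.11). Quantile normalization of Cy5 alone gave a smaller difference for G6pc, -6.71 (log2). All 16 bile acid genes were over 4-fold higher in liver (median -4.55). Cyp7a1, the rate-limiting enzyme of bile acid synthesis, spread over livers from 3.43 through 5.35 to 6.80 and stood at -0.28, -0.11 and -0.04 in lung. Its difference, at least 41.2-fold in Cy5, was far larger than that spread. Of 17 genes of fatty acid oxidation and ketone synthesis, all were higher in liver but only 10 over 4-fold, from Hadhb of the mitochondrial pathway (-0.97 ± 0.06) to the omega-hydroxylase Cyp4a14 (-7.44 ± 0.18). All 13 hormones and carriers secreted by liver were higher there, 11 over 4-fold. The iron hormone Hamp gave -2.59 ± 0.16 in the ratio and -7.76 in Cy5, and Igfbp1 gave -6.75 ± 0.08 and -8.12.

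Drug-metabolizing cytochromes P450 were split. Of 16, 11 were higher in liver, 9 over 4-fold, and 4 were higher in lung. Cyp2j5 was at least 406-fold higher in liver in Cy5, against 236-fold after quantile normalization (fitted ratio -7.90 ± 0.08). The ethanol-inducible Cyp2e1 gave -3.98 ± 0.25 in the ratio, with lungs from 0.39 to 2.63, and -8.02 in Cy5 alone. Cyp2s1, an extrahepatic form, was 49.7-fold higher in lung (5.63 ± 0.12), with 0.03 at its second probe and 2.83 as 1 value per symbol. The other 3 toward lung were Cyp1a1 (1.76), Cyp4b1 (0.75, and 4.99 in Cy5) and Cyp1b1 (0.45). Of 23 complement genes on the list, 21 were higher in liver and 11 over 4-fold. Factor I, Cfi, differed by -8.47 ± 0.11. Factor D, Cfd, which fat cells secrete, was the exception on this list. It measured 3.78, 5.85 and 6.13 in lung and -0.18, 0.00 and 3.17 in liver (4.69 ± 0.54, and 6.96 in Cy5). The complement gene C7, which was not on the list, was also over 4-fold higher in lung. C6 did not pass (-0.21). All 4 major urinary protein genes found were higher in liver, from Mup4 (4.01-fold in the ratio, with a log2 difference of -8.82 in Cy5) to Mup5 (140-fold in the ratio). These genes are near copies of each other, so their probes may share targets.

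Among the 10 genes with the lowest differences of the ratio were Akr1c6, Cps1, Cyp3a41a, Rgn, C4bp, Cfi, Cyp3a16, Akr1c20 and Apoh. Akr1c6, a hydroxysteroid dehydrogenase, stood first in the ratio, with -0.08, 0.05 and 0.31 in lung and 9.41, 9.80 and 10.23 in liver (-9.73 ± 0.15, adjusted p = 1.1e-17). Close family members exist for both Akr1c and both Cyp3a genes of this group, so those differences are uncertain between copies. C4bp gave -8.68 at its brightest probe, -0.17 at the other and -4.43 as 1 value per symbol. Akr1c20 gave -2.89 at its second probe. Cps1, Cyp3a16 and both probes of Akr1c20 were not well above background in any lung.

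**Figure D3:**
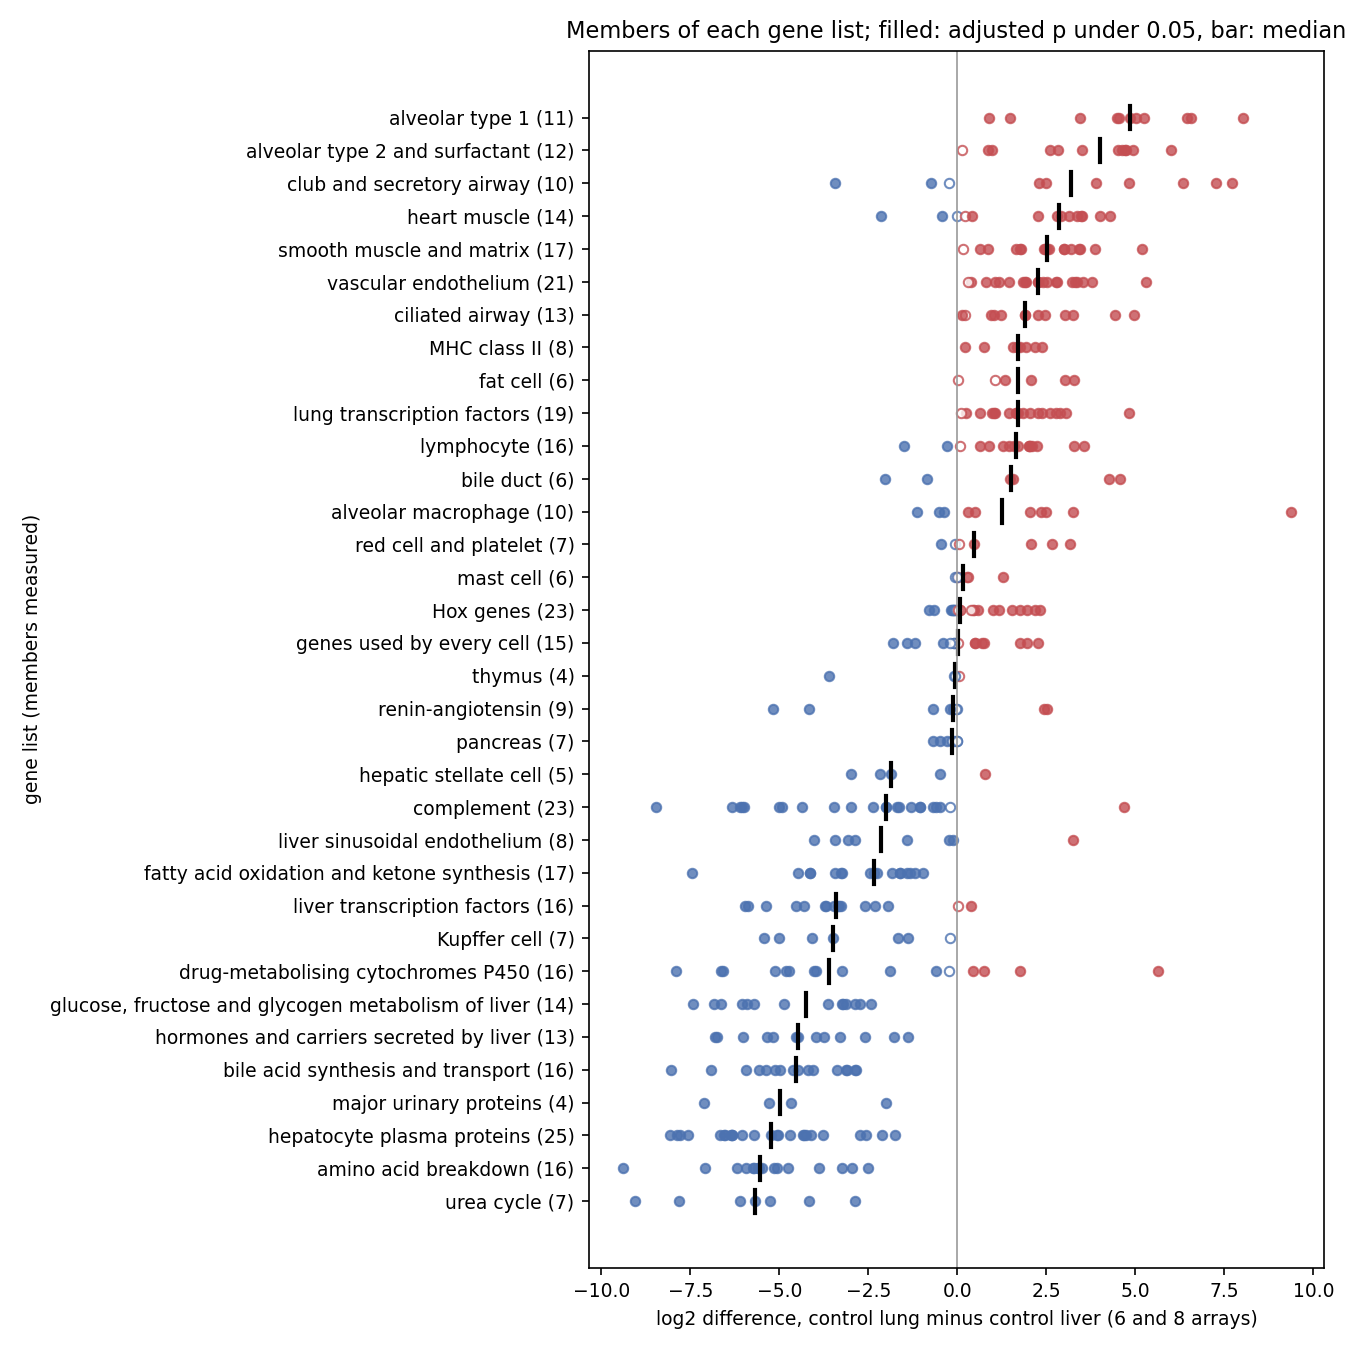
Log2 difference, lung minus liver (x axis), of the measured members of 34 gene lists (y axis, number measured in parentheses), in red toward lung and blue toward liver, filled at adjusted p under 0.05, with a bar at the median. Medians run from -5.70 for the urea cycle to 4.85 for alveolar type 1 cells.

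Of 7 Kupffer cell genes, 6 were higher in liver and none in lung. Clec4f, a lectin of Kupffer cells, measured -0.06, 0.06 and 0.13 in lung and 5.26, 5.45 and 5.72 in liver, at least 83.9-fold higher in Cy5 (58.6-fold after quantile normalization, ratio -5.42 ± 0.06). Of 10 alveolar macrophage genes, 7 were higher in lung and 3 (Msr1, Atp6v0d2 and Mrc1) in liver. The scavenger receptor Marco differed little (0.49 ± 0.18, adjusted p = 0.029): livers ran from 3.53 to 5.07 and lungs from 4.46 to 5.06, so the organs overlapped. Marco did not pass without lung 32 (0.45), lung 34 (0.42) or liver 27 (0.43), with adjusted p of 0.062, 0.072 and 0.057.

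Lymphocyte genes were higher in lung for 13 of 16 and in liver for Cd3e and Cd4. The B cell receptor chain Cd79b differed by 3.56 ± 0.16. The brightest probe of Cd3e gave -1.50 ± 0.29 and its other probe 0.13, so the 2 disagreed. All 8 class II antigen presentation genes were higher in lung, from Cd74 (2.37 ± 0.14) to H2-Ab1 (0.21 ± 0.08, and 3.03 in Cy5). The call for H2-Ab1 was lost with the mouse as a block (0.18, adjusted p = 0.054) and without lung 26, 27 or 29 or liver 24 (0.17, 0.19, 0.16 and 0.18). Of 7 red cell and platelet genes, 4 were higher in lung, all of them platelet genes and led by Ppbp (3.17 ± 0.15), 1 was higher in liver and 2 did not pass. Hemoglobin beta, Hbb-bt, gave -0.47 ± 0.11 in the ratio, where Cy3 differed by 4.08, and 4.11 in Cy5 alone. Its other probes gave -0.35 to 1.54, so it has no settled direction.

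Among markers of minor cell types, 4 of the 6 bile duct genes were higher in lung and 2 in liver, with a median of 1.51. They ran from the keratin Krt19 (4.56 ± 0.15), higher in lung, to Sox9 (-2.03 ± 0.22), higher in liver. Of 5 hepatic stellate cell genes, 4 were higher in liver, led by Reln (-2.98 ± 0.11, and -0.09 at its second probe), and Lrat was 0.76 higher in lung, a call that was lost without lung 27 (0.63, adjusted p = 0.069) or lung 29 (0.67, adjusted p = 0.063). Of 6 mast cell genes only Cma1 (1.30 ± 0.15) and Cpa3 (0.27) passed. Cpa3 fell to 0.05 within hybridization block 2. Its highest adjusted p (limma) over the alternative settings was 0.69, so its call was not kept in all of them. Of 15 genes used by every cell, 7 were higher in lung and 4 in liver, from Actb (2.26 ± 0.11) to Sdha (-1.82 ± 0.12), and 4 did not pass. Their median was 0.03. It fell below 0 with all scanner-signal settings other than centring on the median (-0.04 to -0.27), in Cy5 alone (-0.06), within block 3 (-0.03), and without lung 29 or liver 37 (-0.0048 and -0.0031).

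In the renin-angiotensin system, the precursor Agt was higher in liver (-5.18 ± 0.10 in the ratio and -8.33 in Cy5), and the converting enzyme Ace was higher in lung (2.51 ± 0.06; other probes -0.06 and 1.23). The receptor Agtr1a was higher in liver (-4.18, and -2.25 at its second probe). Of the 9 genes, 5 were higher in liver and 2 did not pass.

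In most of the pairs of related genes chosen here, the 2 members differed in opposite directions. In 17 pairs of related genes, the member known from liver was higher in liver in all 17, and the partner was higher in lung in 13. The calls for Gata4 and Fabp4 among these were lost in the fits given beside those genes. In sugar metabolism, the glucose transporter Slc2a2 (-6.83 ± 0.14) faced Slc2a1 (0.89 ± 0.09), and pyruvate kinase Pklr (-2.86) faced Pkm (1.48). The difference of Slc2a1 was 0.01 in Cy5 alone (adjusted p = 0.9). Arginase Arg1 (-5.70) faced Arg2, not well above background in any liver and at least 3.49-fold higher in lung in Cy5. Among membrane proteins, aquaporin Aqp9, not well above background in any lung and at least 35.5-fold higher in liver in Cy5, faced Aqp5 (6.45). Quantile normalization of Cy5 alone gave 27.2-fold for Aqp9, the ratio gave 22.2-fold, and its other probes gave log2 differences of -2.85 and -2.62. Claudin Cldn1 (-2.40) faced Cldn18, not well above background in any liver and at least 92.8-fold higher in lung in Cy5. The 4 partners not higher in lung were Gys1 (-0.03), Fabp5 (-0.11), Hsd11b2 (-0.08; -0.11 and adjusted p = 0.043 without lung 32) and Cyp2f2 (-0.24). These pairs were chosen for known tissue preference, so their directions are a description.

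**Figure D4:**
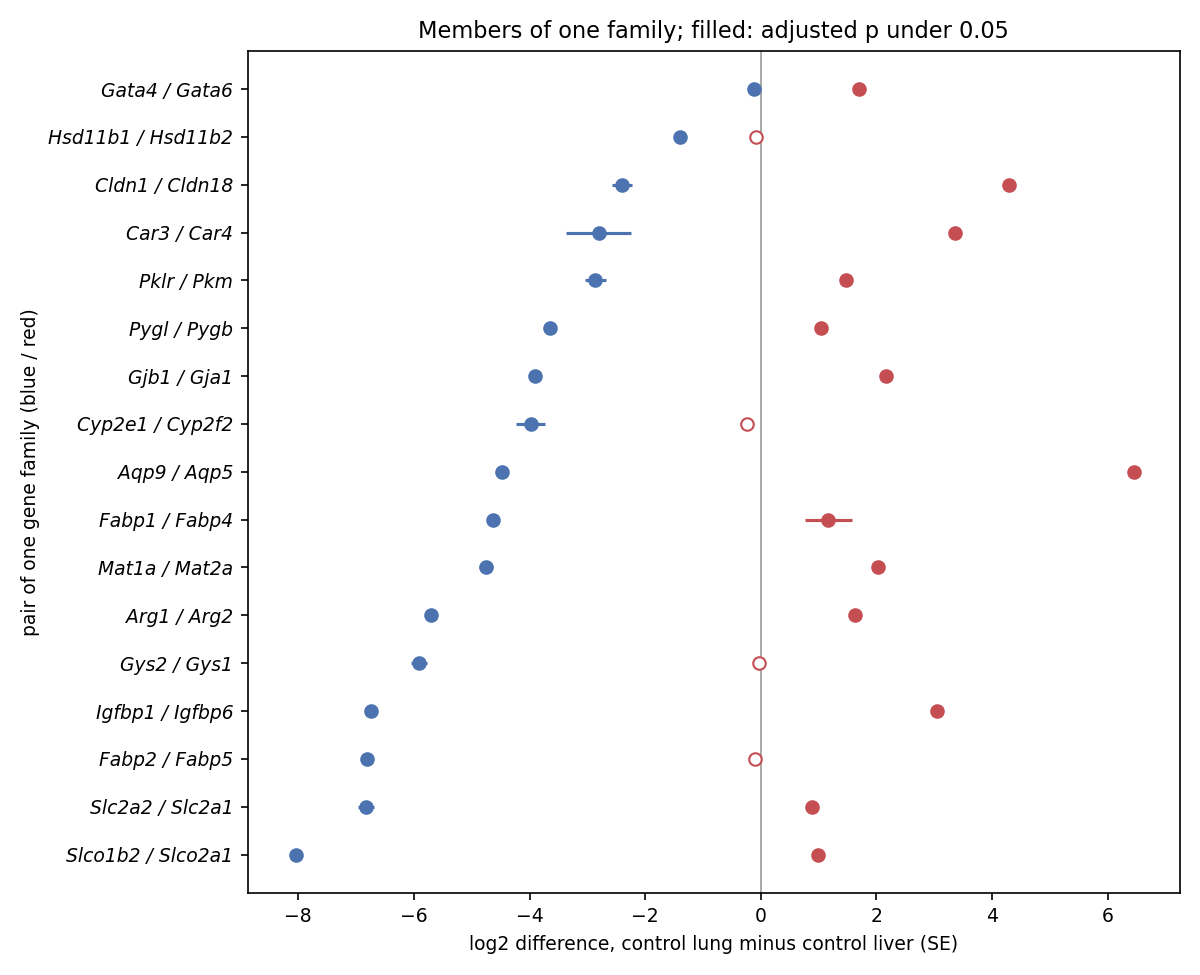
Log2 difference, lung minus liver (x axis, SE bars, n = 6 and 8), for 17 pairs of related genes (y axis), with the liver member in blue and its partner in red, filled at adjusted p under 0.05. Differences of probes not well above background in 1 organ, such as Aqp9, Arg2 and Cldn18, are plotted as fitted. The 4 open points are Gys1 (-0.03), Fabp5 (-0.11), Hsd11b2 (-0.08) and Cyp2f2 (-0.24).

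Some genes varied widely among control mice. In lung, fat cell genes separated mice 27 and 29, which shared slide and hybridization block 2, from the other 4. Adipoq, the fat hormone adiponectin, measured 0.97 and 0.60 in lungs 27 and 29 and 3.53 to 4.63 in the others, against -0.23 to 0.53 in liver. Car3, a carbonic anhydrase of fat, muscle and liver, measured 1.17 and 0.73 in those 2 lungs and 3.92 to 4.82 in the others, all below the livers (5.72 to 6.25). The fatty acid carrier Fabp4 followed with 2.58 and 2.20 against 4.09 to 5.10. The fat cell list passed toward lung at 4 of 6 genes, and at 2 with the lungs of block 2 alone. Its mean per lung was 0.82 and 0.75 in mice 27 and 29 and 1.95 to 3.46 in the other mice, against 0.06 to 0.34 in liver.

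Fabp4 was 1.17 ± 0.40 higher in lung over all arrays (adjusted p = 0.019) and lower in lung within block 2 (-0.50, adjusted p = 0.016). It did not pass without lung 24, 26 or 34 (0.99, 0.98 and 0.94, adjusted p = 0.05, 0.051 and 0.053). Reg3g, an antibacterial lectin, measured 0.65 and 1.11 in lungs 27 and 29 and 3.78 to 5.24 in the others. Heart muscle genes, 10 of 14 higher in lung, were lowest in lungs 27 and 29 as well, with list means of 0.91 and 1.53 against 2.08 to 2.72 in the other 4. Cardiac myosin Myh6 measured 1.75, 3.13 and 3.45 in lung and was not well above background in any liver. Csrp3, a muscle LIM protein on the same list, was higher in liver (-2.14 ± 0.38), with lungs from 0.45 to 3.47 and livers from 3.95 to 4.83. Over the alternative settings its difference ran from -3.52 to -1.20. The highest adjusted p (limma) of Csrp3 was 0.089, so its call was not kept in all of them. The part of fat and heart muscle in the lung values was not tested.

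Single arrays set the spread of other genes. Gstm4 measured 5.02 in lung 27 and 0.03 to 0.37 in the other lungs, and Tnnc2, a skeletal muscle troponin, 2.69 in lung 34 and -1.63 to -1.33 in the others. In liver, Bzw2 measured 4.58 in mouse 24 and -2.45 to -1.88 in the rest, Csf3r -3.28 in mouse 29 and 0.68 to 1.38 in the rest, and the sulfotransferase Sult2a2 3.02 in mouse 45 and 6.73 to 7.84 in the rest. The difference between organs did not pass for Bzw2 (adjusted p = 0.69), Csf3r (0.36) or Tnnc2 (0.66). Without liver 24 the difference of Bzw2 was 0.39 (adjusted p = 0.00096) in place of -0.45. Gadd45g, a stress gene, spread over livers from -2.68 to 1.64, and its difference passed only without liver 32 (1.37, adjusted p = 0.011) among the fits that left out 1 array.

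In liver, Epha3 and Cd3e split the mice by hybridization block. Epha3, an ephrin receptor, measured 2.80 to 4.11 in blocks 1 and 3 (mice 24, 26, 32 and 34) and 5.70 to 6.17 in blocks 2 and 4 (mice 27, 29, 37 and 45). Cd3e measured 0.40 to 0.53 and 1.67 to 2.06 in the same mice. The 2 groups of livers do not overlap at either gene, and both were picked here after their values were seen. Other probes of Epha3 differed between the organs by 0.04 and 0.43, against -4.24 at this one. The blocks correspond to slides, so mouse, slide and block cannot be told apart.

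**Figure D5:**
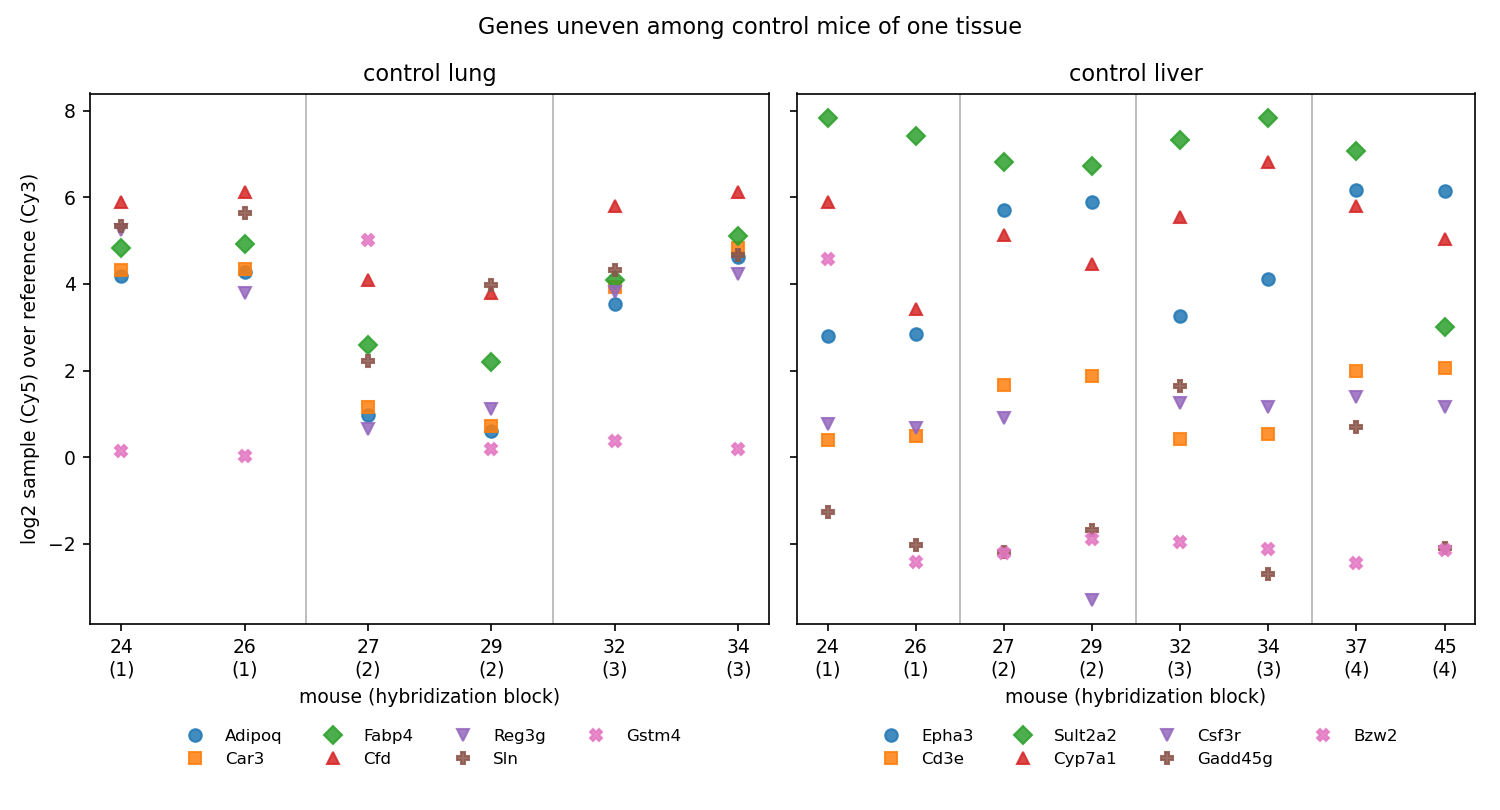
Log2 ratio (y axis) of genes that varied among control mice, by mouse with the hybridization block in parentheses (x axis), in lung (left) and liver (right), with lines between blocks. Lungs 27 and 29 are low at Adipoq (0.97 and 0.60), and livers of blocks 2 and 4 are high at Epha3 (5.70 to 6.17).

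One thymus gene stood apart. Dntt, a polymerase of developing lymphocytes, measured -1.70, -1.49 and -1.01 in lung and 1.24, 2.33 and 2.92 in liver (-3.59 ± 0.23), while Rag1, Rag2 and Ptcra did not pass. Its other probes gave -2.23 and -0.07. Of 7 pancreas genes 4 were higher in liver, from Cela1 (-0.68) to Cpa1 (-0.09). The call for Cpa1 was lost with the mouse as a block (-0.07, adjusted p = 0.18) and without any 1 of lungs 24, 26, 27, 29 and 34 or livers 29, 32, 34, 37 and 45 (-0.09 to -0.07).

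The organ differences recurred in the exposed mice, which the control comparison did not use. Of 1438 probes over 4-fold higher in control lung, 1438 were called higher in exposed lung (100%), and of 1400 higher in control liver, 1399 were called higher in exposed liver (99.93%), where 63.6% of all probes and 72.9% of named genes were called in either direction. No probe had the opposite sign. The exposed arrays lay on the same slides as the controls, except for exposed lungs 20 and 23, whose slide held no control lung.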

How the data were processed

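RNA of 6 control lungs and 8 control livers was read on 2-colour Agilent arrays, with the sample in Cy5, universal reference RNA in Cy3 and no dye swap. The authors LOWESS-normalized the arrays and deposited log2 Cy5 over Cy3 for 45018 spots per array, of which 43379 were not controls. Spots of the same probe were averaged here, which gave 41174 probes. The table's scale and direction were checked against the scanner files (r = 0.929 to 0.993 in lung and 0.936 to 0.966 in liver), and its medians ran from -0.043 to -0.023. Deposited scanner intensity served for detection, Cy3, Cy5 alone and the alternatives. Lung miRNA arrays were not used here.

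Differences were fitted with limma 3.58.1 in R 4.3.3 (packages statmod 1.5.0, jsonlite 2.0.0 and data.table, version 1.17.8), with Benjamini-Hochberg adjustment over all probes, a threshold of 0.05 and, for over 4-fold, an absolute log2 difference above 2. Cy3 and Cy5 alone were quantile normalized. Figures used matplotlib 3.10.9. The exact 2-sided permutation test over 3003 splits has a smallest p of 0.000333. On simulated data 99% of 200 probes changed by 1 (log2) were recovered in the control comparison, with 9 false calls. The simulated noise was independent for each array, with no slide, scanner or mouse effect. The count therefore does not cover false calls that such effects could give. A gene was read from its brightest probe. Names came from accession for 22951 probes, symbol for 6659 and synonym for 3109, and 8455 kept the name in the files.

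Gene lists, pairs and other members were chosen with earlier results of these data known. Named genes were a fixed set of 40, the 10 highest and 10 lowest differences, the extremes of each list, the pairs, and the 5 most variable genes of each organ. Dnai1 was read as Dnaic1 and Hbb-b1 as Hbb-bt, chosen after the files were read. Hbb-b2, Mup2, Mup20 and Serpina1a were not matched here, and a few genes chosen by the rule are not reported here. Lung and liver share 6 animals by the mouse numbers in the labels. Deviations of the 2 organs of a mouse correlated at 0.118, -0.00974, 0.0318, 0.121, 0.127 and 0.0774 (mice 24, 26, 27, 29, 32 and 34). Each array is another animal of its group, and technical and animal spread are not separated. The consensus correlation of arrays within a slide was 0.33, which the printed SE and adjusted p do not take in. With the slide as a random block, 22963 probes and 139 single genes were called, against 24766 and 145 without it.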

Additional observations from a re-analysis of the deposited data

Results flagged for a closer look

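In 16 of 296 groups of single-gene values (5.41%, 6 lung and 10 liver), 1 array lay far from the others by Dixon's test. The nominal rate of that test, about 1 in 20 groups, does not apply to this set. Its genes were chosen partly from these same values, among them the 5 most variable of each organ. The values with the nearest other array in parentheses follow. In lung they were Cldn18 in mouse 26, 4.78 (4.36), Gstm4 in mouse 27, 5.02 (0.371), and in mouse 34 Dntt, -1.01 (-1.47), Mup5, 1.25 (0.434), Pygl, 3.01 (2.42), and Tnnc2, 2.69 (-1.33). In liver they were Bzw2 in mouse 24, 4.58 (-1.88), Slco2a1 in mouse 26, 2.37 (2.21), and Cma1 in mouse 27, 0.605 (0.286). Liver 29 held Cldn18, -0.263 (-0.0275), Csf3r, -3.28 (0.679), Csrp3, 3.95 (4.43), and Sftpc, -0.110 (-0.00871). Liver 45 held Fabp4, 2.40 (2.71), Sdha, 1.67 (2.38), and Sult2a2, 3.02 (6.73).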

How the results depend on the processing

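The number of probes called stayed within 1.5 times of 24766 under every alternative (16994 with 1 value per gene symbol, which tests fewer features, to 29681, and 23845 to 24819 leaving out 1 array). Probes over 4-fold higher in lung (1438) numbered 3832 with the scanner software's processed signals, which also moved the median of all probes to -0.11, and 862 with 1 value per gene symbol. Those higher in liver (1400) numbered 2540 with processed signals. Probes repeated in the exposed mice (2837, or 99.96%) numbered 6366 (99.91%) with processed signals and 1812 (99.94%) with 1 value per gene symbol. These shares are of the features over 4-fold in control mice in the same setting, so the counts follow the over 4-fold counts. Fewer features are tested with 1 value per symbol, and the cause of the moves in the over 4-fold counts with processed signals was not tested. Leaving out 1 array gave 1426 to 1452 and 1393 to 1411 over 4-fold, 2837 to 2838 repeated, 16448 to 18516 in Cy3, 371 to 377 list members and 141 to 145 single genes called. With the mouse as a replicate block, a fit that kept only the 6 mice with both organs and left out livers 37 and 45, 23566 probes were called. Cpa1, Gata4, H2-Ab1 and Spef2 lost their call, and no other named gene changed its call under the block.

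Of 2599 values of 153 named genes under 17 alternatives, 2496 kept direction and call. The call was lost at 65, gained at 8, and the sign changed at 30. Of 2142 values with 1 array left out, 33 lost the call, 3 gained it and 2 changed sign. The changes of sign follow. Under normexp, Bzw2 was 0.252 and Hbb-bt 0.0545 (0.265 and 0.0330 without the marked spots). With no background correction Bzw2 was 0.39 and Gys1 0.0757. With processed signals Bzw2 was 0.45, Fabp5 0.0448, H2-Ab1 -0.0316 and Kdr -1.37. Centring on the median gave Bzw2 0.94 and Gys1 0.66, and Cy5 alone gave Bzw2 0.38, Cyp2f2 1.56, Hbb-bt 4.11 and Hsd11b2 0.0256. One value per symbol gave Hbb-bt 0.25. Within block 1, Csf3r was -0.0659, Fabp5 0.0493 and Tnnc2 -0.28. Within block 2, Bzw2 was 0.35, Cyp2f2 0.10, Fabp4 -0.50 and Tnnc2 -0.55. Within block 3, Bzw2 was 0.24, Gadd45g -0.0795, H2-Ab1 -0.0315 and Kdr -0.0562. With the lungs of block 2 alone, chosen after seeing the data, Fabp4 was -0.39 and Tnnc2 -0.31. Leaving out 1 array, Bzw2 ran from -0.61 to 0.39 (without liver 24) and Tnnc2 from -0.39 (without lung 34) to 0.48. The cause of these changes was not tested.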
